A study of Mus musculus with 8 samples.

Results

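HOX genes are the homeobox transcription factors of the Hoxa, Hoxb, Hoxc and Hoxd clusters. Gene symbols made of Hox, a cluster letter and a paralog number picked out 39 of the 24421 genes counted in collecting duct pulldown RNA. They were 11 of Hoxa, 10 of Hoxb, 9 of Hoxc and 9 of Hoxd. Of these 39 genes, 30 had 10 or more counts in at least 4 of the 8 libraries and form the set described here. The same 30 genes entered the test of ischemia-reperfusion injury (IRI) against sham. RNA came from 8 male mice aged 10 to 16 weeks that carried HoxB7-Cre and the Gt(ROSA)26Sor-mCherry-Rpl10a allele, which tags ribosomes with mCherry wherever Cre has been active. In 4 mice the renal artery was clamped for 30 min, and the kidneys were taken 9 h later. The other 4 mice had sham surgery without clamping and carried the same alleles. Tagged ribosomes were pulled down from whole kidney with an antibody against red fluorescent protein. This enriches the ribosome-bound RNA of cells with a history of HoxB7-Cre, but markers of cells outside that lineage were counted too, as given below. The HoxB7-Cre driver uses regulatory sequence of Hoxb7 itself and acts in the derivatives of the mesonephric duct, which include the collecting duct and the epithelium of the ureter. The comparison asked how HOX transcripts in the pulldown RNA differed early after ischemia.

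HOX genes set the identity of cells along the body axis of the embryo. Within a cluster they lie in the order in which they are used along that axis, and genes of one paralog number in different clusters are copies of a common ancestor. Their proteins bind DNA with cofactors of the TALE class, the PBX, MEIS and PKNOX proteins. Trithorax complexes keep HOX clusters active and Polycomb complexes keep them silent, while retinoic acid opens them in the embryo. In the kidney, the paralogs numbered 11 are needed for the ureteric bud to grow out, and those numbered 10 for the stroma. The adult collecting duct, which grows from the ureteric bud, goes on expressing HOX genes.

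In GRCm38, the build named mm10 in the submitters' processing notes, the Hoxa genes span chr6:52155590-52260880 on the minus strand and the Hoxb genes chr11:96194316-96368256 on the plus strand. The Hoxc genes span chr15:102921103-103036852 and the Hoxd genes chr2:74668310-74765142, both on the plus strand. Promoter windows of RefSeq (GRCm38.p6), from 250 bases before to 50 bases after a start, were at hand for 22 of the 39 members and for 8 of the 13 that passed the test below. The windows of 4 of these members are shown. Hoxd8 was the most abundant member, Hoxd4 had one of the largest falls, Hoxb8 fell and held both motifs searched, and Hoxa11 rose. Capitals mark the letters TGATNNAT, of the kind bound by HOX and PBX together, and TTTATG, of the kind bound by CDX factors, on either strand. The windows lie at chr2:74704365-74704664 for Hoxd8, chr2:74721728-74722027 for Hoxd4 and chr11:96281655-96281954 for Hoxb8, all on the plus strand, and at chr6:52245761-52246060 on the minus strand for Hoxa11.
Hoxd8: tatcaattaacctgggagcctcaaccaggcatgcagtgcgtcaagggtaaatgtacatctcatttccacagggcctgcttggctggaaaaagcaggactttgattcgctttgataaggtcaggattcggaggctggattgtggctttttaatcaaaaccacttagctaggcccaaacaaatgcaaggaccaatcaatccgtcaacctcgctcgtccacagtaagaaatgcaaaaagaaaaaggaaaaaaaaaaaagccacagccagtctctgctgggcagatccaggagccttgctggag
Hoxd4: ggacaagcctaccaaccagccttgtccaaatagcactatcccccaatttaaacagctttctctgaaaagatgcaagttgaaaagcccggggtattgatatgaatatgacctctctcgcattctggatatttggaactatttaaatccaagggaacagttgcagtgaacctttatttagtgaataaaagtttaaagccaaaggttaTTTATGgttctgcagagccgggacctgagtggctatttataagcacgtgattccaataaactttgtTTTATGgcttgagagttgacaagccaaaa
Hoxb8: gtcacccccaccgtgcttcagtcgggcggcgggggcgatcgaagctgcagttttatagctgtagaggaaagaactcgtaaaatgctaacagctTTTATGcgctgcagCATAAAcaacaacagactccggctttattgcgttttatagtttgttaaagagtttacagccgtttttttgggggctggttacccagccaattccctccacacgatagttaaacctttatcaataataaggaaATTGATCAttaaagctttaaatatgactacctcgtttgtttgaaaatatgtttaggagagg
Hoxa11: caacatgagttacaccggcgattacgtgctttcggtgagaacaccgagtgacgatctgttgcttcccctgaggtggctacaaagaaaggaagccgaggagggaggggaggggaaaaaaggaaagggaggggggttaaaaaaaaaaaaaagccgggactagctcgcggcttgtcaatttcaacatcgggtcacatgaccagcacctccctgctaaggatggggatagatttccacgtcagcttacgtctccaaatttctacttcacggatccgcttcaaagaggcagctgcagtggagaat
TGATNNAT was found in 4 of 24 HOX windows and in 8.85% of all 32851 windows of the table. TTTATG was found in 5 of 24 HOX windows and in 11.9% of all windows. The Hoxb8 window held 1 match to the former and 2 to the latter, and the Hoxd4 window 2 to the latter. No match to either was found in the windows of Hoxd8 and Hoxa11. Such matches describe letters only.

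Hoxb8 has also been known as a target of miR-196, a microRNA encoded within the HOX clusters that directs cleavage of the Hoxb8 transcript. The mature miR-196a-5p (chr11:96265187-96265208, plus strand, RefSeq) is shown with its seed, bases 2 to 8, in capitals. Below it stands the window of 22 bases that paired best in the annotated Hoxb8 transcript, at chr11:96284888-96284909 in the 3′ untranslated region, where 21 bases form Watson-Crick pairs and the capital marks the 1 G:U pair.
mmu-miR-196a-5p: uAGGUAGUuucauguuguuggg
Hoxb8 site: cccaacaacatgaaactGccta

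The labelled cells were checked against their markers. All 14 principal cell markers were detected, with summed levels of 16389 to 20556 CPM (gene counts divided by library size and scaled by the TMM method) in sham and 4130 to 6669 CPM after IRI, and 13 of them fell. Of 17 intercalated cell markers, 16 fell. The 11 markers of urothelium and deep medulla summed to 1065 to 1382 CPM in sham and 1097 to 2364 CPM after IRI. Of these, 2 rose, 2 fell and 7 did not pass the test. The 20 markers of the proximal tubule, which lies outside the Cre lineage, summed to 9531 to 12639 CPM in sham and 12715 to 25894 CPM after IRI, and 12 of them rose. The 12 markers of the thick limb and distal convoluted tubule summed to 2462 to 4386 CPM in sham and 2617 to 3907 CPM after IRI. Of these, 2 rose and 10 did not pass the test. Counts in genes ran from 13518005 to 27496808 per library after IRI and from 25210299 to 29285812 in sham. Across the transcriptome, 49.7% of the 14606 genes tested passed the edgeR quasi-likelihood test at a Benjamini-Hochberg adjusted p below 0.01, 3667 higher and 3595 lower after IRI. Scaled by total counts instead, 2784 were higher and 4912 lower. In bulk pulldown RNA of this kind, fewer cells of a type, less RNA per cell and weaker enrichment by the pulldown cannot be told apart.

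Summed over all members, HOX transcripts were less abundant after IRI. This sum is weighted toward abundant members, of which Hoxd8 alone gave 367 ± 27.0 CPM in sham and 103 ± 19.2 CPM after IRI. The summed level of all HOX genes was 923 ± 35.3 CPM in sham and 423 ± 35.6 CPM after IRI (mean ± SD, n = 4 mice, as for all values here), with ranges of 888 to 968 and 388 to 472 CPM that did not overlap. Of the 30 members, 10 fell, 3 rose and 17 did not pass the test, against 24.6% of all genes tested that fell and 25.1% that rose. The 13 that passed were 43.3% of the members, so the share that changed was near that of all genes. The median log2 fold change was -0.07 over the members and -0.01 over all genes tested. Groups did not overlap for 15 members, against 58.6% of all genes. These were 11 lower and 4 higher members, against 29.8% and 28.8% of all genes.

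The members that passed were divided among the clusters. All 10 members that fell belonged to Hoxb (6 of 8) or Hoxd (4 of 7), and all 3 that rose to Hoxa (2 of 9) or Hoxc (1 of 6). The shares that fell were 75.0% of Hoxb and 57.1% of Hoxd, against 24.6% of all genes, while the shares that rose, 22.2% of Hoxa and 16.7% of Hoxc, were not above the 25.1% of all genes. The difference between the clusters was not tested. The median log2 fold change was -1.61 over the Hoxd members, -0.83 over Hoxb, 0.45 over Hoxc and 0.85 over Hoxa. By paralog number, the 10 that fell were among the 25 members numbered 1 to 9, and the 3 that rose were among the 5 numbered 10 and 11. Of the 13 calls, 9 were in members with at most 20% of their exon length shared with another annotated gene, counted here or not (7 lower and 2 higher). For the others, the part shared with counted genes was 0% in Hoxb2, 9.76% in Hoxd3, 13.2% in Hoxd4 and 35.0% in Hoxa11. Without IRI replicate 4, 5 members rose in place of 3, Hoxa5 and Hoxa9 being added.

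**Figure D1:**
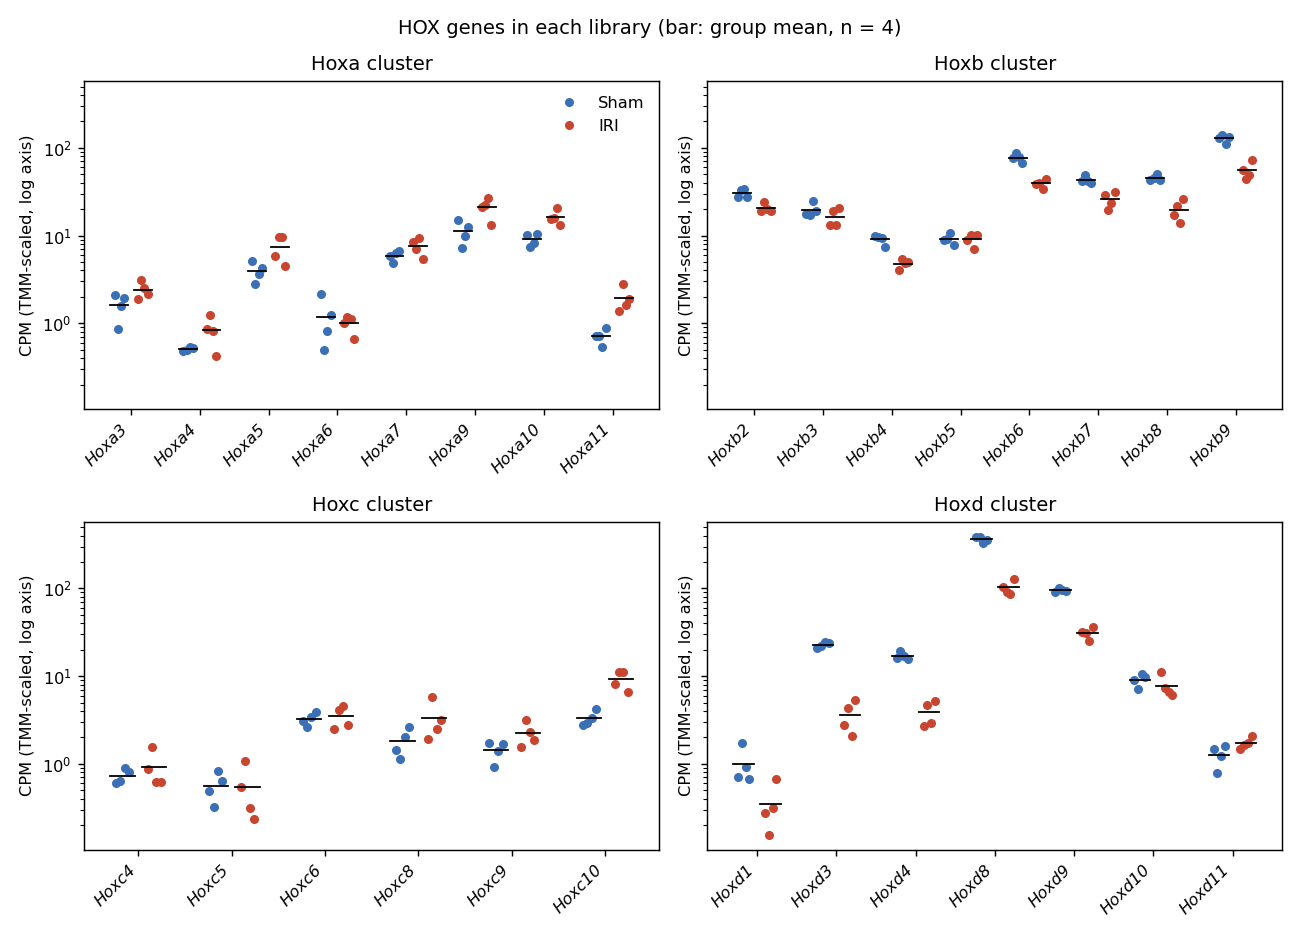
Level of 29 of the 30 HOX genes in each library, as TMM-scaled CPM on a log axis, with genes of each cluster in the order of paralog number. Points are mice and bars are group means. The 4 IRI libraries of Hoxd3, Hoxd4, Hoxd8 and Hoxd9 lie below all 4 sham libraries, while those of Hoxa10, Hoxa11 and Hoxc10 lie above them.

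The Hoxd cluster carried the largest changes. Hoxd8, which acts in the patterning of the trunk, had 387, 391, 333 and 359 CPM in sham replicates 1 to 4 and 104, 91.5, 87.1 and 130 CPM in IRI replicates 1 to 4. Every IRI library lay below every sham library. The fall in Hoxd8 was 3.56-fold (log2 -1.83, standard error from limma-voom 0.13, edgeR adjusted p = 5.53e-06). Within the low and the high series of animal numbers, read from the submitters' names as a possible batch, the differences in mean log2(CPM + 0.5) were -2.03 and -1.47. The low series holds 3 IRI mice and 1 sham mouse and the high series 1 IRI mouse and 3 sham mice, so each difference rests on a single library in 1 group and gives no replicated check, and series and group are largely confounded.

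Hoxd9, which shapes the limb and the lower spine together with its paralogs, had 90.6, 99.9, 96.3 and 93.5 CPM in sham and 32.2, 30.7, 25.4 and 36.3 CPM after IRI. The sham mice differed little among themselves and all lay above the IRI mice. The fold change was 3.05-fold lower (log2 -1.61, standard error 0.10, edgeR adjusted p = 3.07e-06).

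Hoxd3 and Hoxd4, which pattern the vertebrae of the neck, changed more in proportion. Hoxd3 was at 20.9, 22.3, 24.4 and 24.1 CPM in sham and at 2.74, 4.36, 2.06 and 5.41 CPM after IRI, a 6.30-fold fall (log2 -2.65, standard error 0.23, edgeR adjusted p = 2.84e-05). Hoxd4 was at 15.9, 19.4, 17.1 and 15.7 CPM in sham and at 2.70, 4.67, 2.93 and 5.22 CPM after IRI, a 4.41-fold fall (log2 -2.14, standard error 0.21, edgeR adjusted p = 3.45e-05). Neither gene overlapped between the groups. A fall of at least 4-fold that passed the test was seen in 2.59% of all genes. Hoxd3 and Hoxd4 share 62.8% and 52.3% of their exon length with other annotated genes, most of it with genes that were not counted here. With counted genes, each other among them, they share 9.76% and 13.2%. With the strand setting and counting mode unknown here, reads in the shared parts cannot be fully told apart.

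The remaining Hoxd members did not pass the test. Hoxd10 and Hoxd11, whose paralog groups act in the kidney and limb, had log2 fold changes of -0.23 (standard error 0.21, edgeR adjusted p = 0.361) and 0.45 (standard error 0.27, adjusted p = 0.161). Both overlapped between the groups. Hoxd10 was at 9.07, 7.18, 10.6 and 9.65 CPM in sham and at 11.1, 7.24, 6.54 and 6.07 CPM after IRI. Hoxd1, known from sensory neurons, was scarce, at 0.67 to 1.73 CPM in sham and 0.16 to 0.66 CPM after IRI. Its groups did not overlap, with a log2 fold change of -1.46 (standard error 0.47, edgeR adjusted p = 0.0232), and the adjusted p was 0.00833 without IRI replicate 4, in a range of 0.00833 to 0.0728 over 17 alternatives. From Hoxd3 through Hoxd4, Hoxd8, Hoxd9 and Hoxd10 to Hoxd11, the log2 fold changes stood in the order of the paralog numbers, from the most negative to the most positive. Hoxd1 breaks it, since its -1.46 lies between the values of Hoxd9 and Hoxd10. The order of the other 6 was seen after the values were known and is given without a test. It was the same in all 18 fits tried, but these draw on the same 8 libraries and are no separate support.

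**Figure D2:**
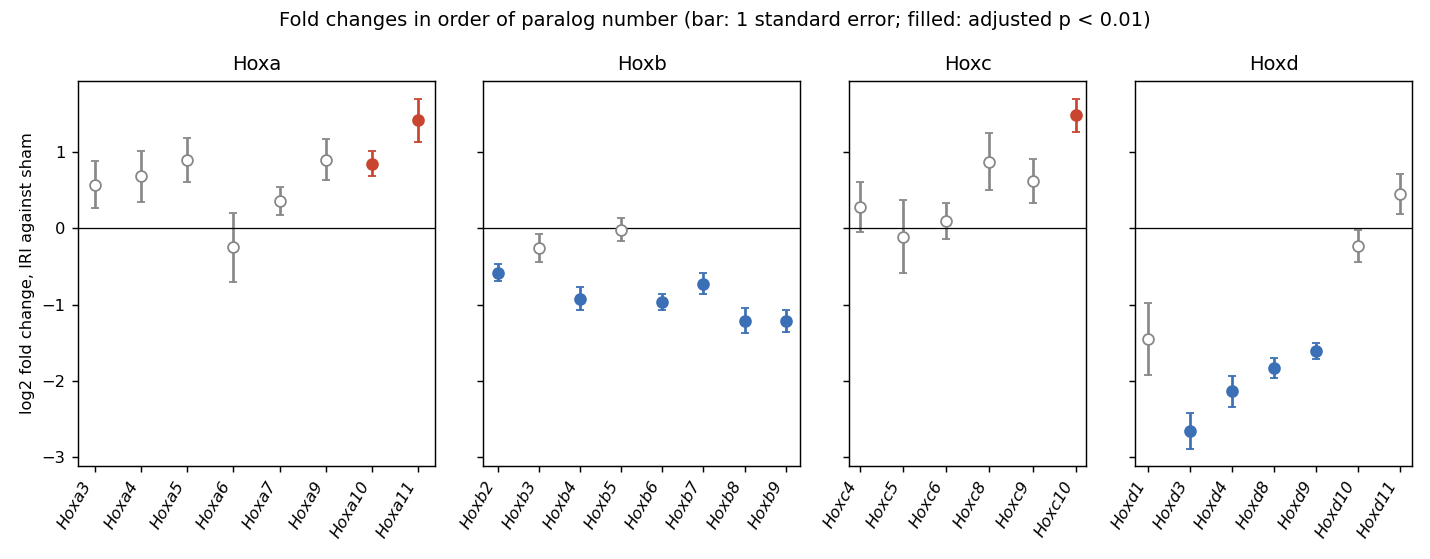
Log2 fold change of the same 29 HOX genes, IRI against sham, with 1 standard error from limma-voom, by cluster and in the order of paralog number. Filled points passed the edgeR test, blue where the gene fell and red where it rose, and open grey points did not. Hoxd values climb from -2.65 at Hoxd3 to 0.45 at Hoxd11, with Hoxd1 outside this order at -1.46, and all 8 Hoxb values lie below 0.

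In the Hoxb cluster all 8 members had log2 fold changes below 0, from -1.22 to -0.02, and 6 passed the test. Hoxb9, which patterns the ribs, led them with 131, 141, 110 and 134 CPM in sham and 55.8, 44.5, 49.0 and 71.9 CPM after IRI. It fell 2.33-fold (log2 -1.22, standard error 0.15, edgeR adjusted p = 9.76e-05). Hoxb8, known for its role in blood and microglial lineages, had 43.1, 45.3, 50.5 and 43.4 CPM in sham and 17.005, 21.9, 13.8 and 26.0 CPM after IRI. The fall was 2.32-fold (log2 -1.21, standard error 0.17, edgeR adjusted p = 0.000298). In both genes the highest IRI library was replicate 4, and it stayed below all sham libraries.

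Hoxb6, a gene of the trunk and lateral mesoderm, had 75.8, 88.3, 78.6 and 67.5 CPM in sham and 39.1, 40.1, 34.4 and 44.6 CPM after IRI. It fell 1.96-fold (log2 -0.97, standard error 0.11, edgeR adjusted p = 4.83e-05). Hoxb7, the ureteric bud gene whose regulatory sequence drives the Cre, had 41.4, 48.7, 41.6 and 40.1 CPM in sham and 28.7, 19.7, 23.2 and 31.8 CPM after IRI. The groups of Hoxb7 did not overlap, and it fell 1.66-fold (log2 -0.73, standard error 0.14, edgeR adjusted p = 0.00192).

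Hoxb4, which expands blood stem cells when overexpressed, had 9.78, 9.59, 9.44 and 7.39 CPM in sham and 4.00, 5.37, 4.86 and 4.93 CPM after IRI, 1.90-fold lower (log2 -0.92, standard error 0.16, edgeR adjusted p = 0.000537). Hoxb2, a hindbrain patterning gene, had 27.8, 32.9, 34.2 and 27.4 CPM in sham and 19.0, 23.9, 19.996 and 18.9 CPM after IRI. Its fall was the smallest of the 10, at 1.496-fold (log2 -0.58, standard error 0.11, edgeR adjusted p = 0.00169). Over 27.3% of its exon length Hoxb2 overlaps an antisense gene that was not counted here. No library crossed between the groups in Hoxb4 or Hoxb2. Hoxb3 and Hoxb5 overlapped between the groups and did not pass the test, with log2 fold changes of -0.26 (standard error 0.18, edgeR adjusted p = 0.234) and -0.02 (standard error 0.15, adjusted p = 0.917). Hoxb3 had 13.2 to 20.4 CPM after IRI and 17.2 to 24.6 CPM in sham, and Hoxb5 7.04 to 10.2 and 7.87 to 10.8 CPM.

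Among the genes of Hoxa, 2 rose. Hoxa10, a paralog of the group needed in renal stroma and in the reproductive tract, had 10.2, 7.36, 8.20 and 10.4 CPM in sham and 15.6, 15.8, 20.6 and 13.04 CPM after IRI. All IRI libraries lay above all sham libraries. The rise was 1.80-fold (log2 0.85, standard error 0.17, edgeR adjusted p = 0.00190), and the adjusted p was 0.0106 once the animal number series entered the model, in a range of 1.20e-05 to 0.0115 over 17 alternatives.

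Hoxa11, which acts with Hoxd11 in the outgrowth of the ureteric bud, was scarce, with 19, 20, 17 and 24 counts in sham and 35, 36, 26 and 40 counts after IRI. Scaled, this was 0.54 to 0.89 CPM in sham and 1.37 to 2.80 CPM after IRI, with no overlap. It rose 2.67-fold (log2 1.42, standard error 0.29, edgeR adjusted p = 0.00200). Over 35.0% of its exon length it overlaps the antisense gene Hoxa11os, which had a log2 fold change of 1.06 (edgeR adjusted p = 0.0705), so reads of the pair may be shared.

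The other 7 Hoxa members did not pass. Hoxa9, a gene of blood progenitors and leukemia, had 15.2, 7.26, 10.01 and 12.5 CPM in sham and 21.4, 22.5, 26.8 and 13.1 CPM after IRI. Only IRI replicate 4 came within the range of the sham libraries. Its log2 fold change was 0.90 (standard error 0.27, edgeR adjusted p = 0.0137), and the adjusted p was 0.00364 without that library, in a range of 0.00173 to 0.0530 over 17 alternatives. The highest came with the animal number series in the model, at a log2 fold change of 0.52. Hoxa5, needed for lung development, had a log2 fold change of 0.90 (standard error 0.29, edgeR adjusted p = 0.0212), with 2.83 to 5.08 CPM in sham and 4.46 to 9.74 CPM after IRI. The log2 fold changes of Hoxa3, Hoxa4, Hoxa6 and Hoxa7 ran from -0.25 to 0.68.

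In the Hoxc cluster, Hoxc10, a limb and lumbar gene, was the only member of 6 to pass. It had 2.80, 2.94, 3.29 and 4.18 CPM in sham and 8.23, 11.1, 11.2 and 6.54 CPM after IRI. The groups were well apart, and Hoxc10 rose 2.79-fold (log2 1.48, standard error 0.22, edgeR adjusted p = 0.000289). Hoxc8 and Hoxc9, which pattern motor neurons of the trunk, had log2 fold changes of 0.87 (standard error 0.37, edgeR adjusted p = 0.0777) and 0.62 (standard error 0.29, adjusted p = 0.0927). IRI replicate 2 was the highest library in both, at 5.84 CPM for Hoxc8 and 3.19 CPM for Hoxc9. Hoxc4, Hoxc5 and Hoxc6 had log2 fold changes from -0.11 to 0.28.

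Markers of fibroblasts and pericytes stood out in the same library. Their summed level over 15 genes was 1754 CPM in IRI replicate 2, 333 to 644 CPM in the other IRI libraries and 256 to 405 CPM in sham, and 4 of the 15 rose. Col3a1 and Col1a1 alone gave 848 and 362 CPM in IRI replicate 2, and the other 13 markers summed to 544 CPM there, 219 to 376 CPM in the other IRI libraries and 208 to 299 CPM in sham. Without IRI replicate 2, Hoxa10 still rose (log2 0.86, edgeR adjusted p = 0.00477), as did Hoxa11 (log2 1.19, adjusted p = 0.00432) and Hoxc10 (log2 1.39, adjusted p = 0.00101). Of the members that did not pass, Hoxc8 went from a log2 fold change of 0.87 to 0.48 without that library, Hoxc9 from 0.62 to 0.41, Hoxa4 from 0.68 to 0.46 and Hoxc4 from 0.28 to -0.05. Endothelial markers summed to 382 to 790 CPM after IRI and 236 to 342 CPM in sham, with 6 of 12 higher. Neutrophil markers summed to 64.4 to 182 CPM after IRI and 3.54 to 6.75 CPM in sham, and 9 of the 10 tested rose. Of 14 tested factors of the ureteric bud and collecting duct, 8 fell and 1, Tfap2a, rose. Beside these counts, 25.1% of all genes tested rose and 24.6% fell. IRI replicate 4 had the lowest proximal tubule sum of the IRI libraries (12715 CPM) and the highest principal cell sum (6669 CPM). Among the IRI libraries, its summed Hoxa and Hoxc levels were the lowest (42.4 and 15.4 CPM). Its Hoxb and Hoxd levels were the highest (229 and 186 CPM). The part of these cell types in the HOX results was not tested.

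The balance among the clusters moved with these changes. The Hoxd genes gave 54.5% to 56.3% of summed HOX CPM in the sham libraries (55.6% ± 0.81) and 32.6% to 39.3% after IRI (35.7% ± 3.17). The Hoxb share was 39.4% ± 1.33 in sham and 45.1% ± 2.43 after IRI, although its summed level was 364 ± 19.7 CPM in sham and 191 ± 26.8 CPM after IRI. Hoxa genes gave 3.77% ± 0.86 in sham and 14.4% ± 4.21 after IRI, and Hoxc genes 1.22% ± 0.29 and 4.79% ± 1.52. None of these 4 shares overlapped between the groups. A share of 100% falls in some clusters whenever it grows in others, and these sums weight each gene by its abundance and length.

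**Figure D3:**
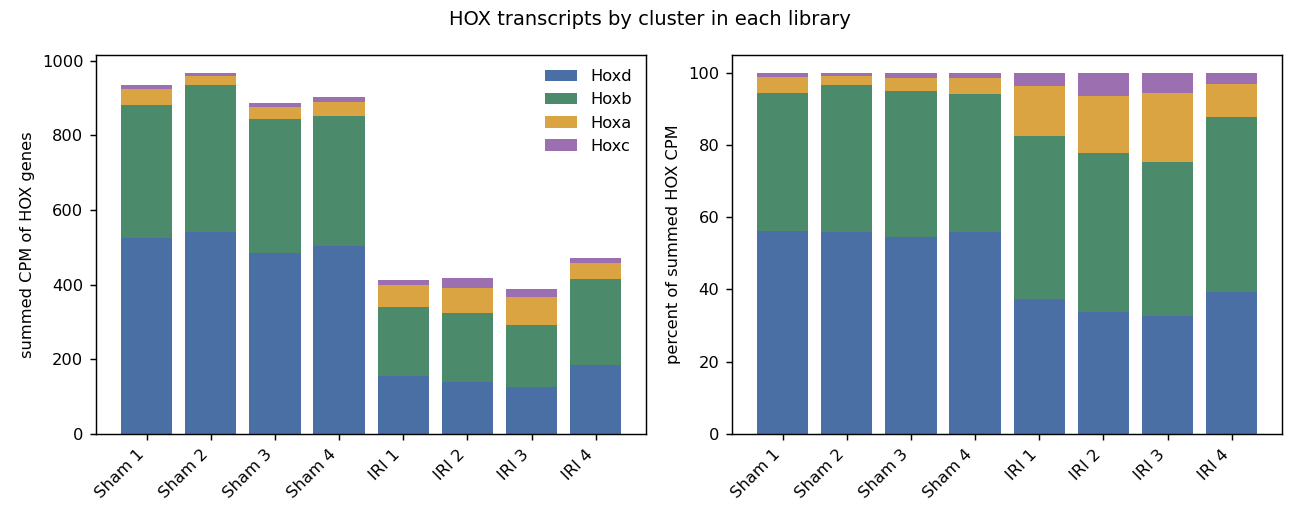
Summed TMM-scaled CPM of HOX genes by cluster in each library (left) and the same sums as percent of all HOX CPM (right), stacked from 0. In sham the total lies between 888 and 968 CPM and Hoxd makes up 54.5% to 56.3%; after IRI the total lies between 388 and 472 CPM and Hoxd makes up 32.6% to 39.3%.

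For 2 pairs of paralogs with 1 number, the levels were compared within each library. The ratio of Hoxd9 to Hoxa9 CPM was 5.98, 13.8, 9.62 and 7.51 in sham and 1.51, 1.36, 0.947 and 2.76 after IRI. That of Hoxd10 to Hoxc10 was 3.24, 2.45, 3.21 and 2.31 in sham and 1.35, 0.655, 0.587 and 0.928 after IRI. Neither ratio overlapped between the groups. Hoxd9 fell and Hoxc10 rose, while Hoxa9 and Hoxd10 did not pass. Both pairs were picked after the values were seen and get no test.

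Levels of different genes were compared per kilobase of merged exon length. In sham, Hoxd8 stood highest at 134 ± 9.84 CPM per kb, followed by Hoxb9 (50.1 ± 5.09), Hoxd9 (44.5 ± 1.86), Hoxb6 (39.5 ± 4.37), Hoxb7 (27.8 ± 2.53) and Hoxb8 (17.3 ± 1.30). The library ranges of Hoxd8 lay above those of Hoxb9, but Hoxb9, Hoxd9 and Hoxb6 overlapped as neighbours, as did 22 of the 29 neighbouring pairs in the order. After IRI, Hoxd8 was again highest at 37.6 ± 6.99 CPM per kb, then Hoxb9 (21.5 ± 4.67), Hoxb6 (20.1 ± 2.14), Hoxb7 (16.7 ± 3.50) and Hoxd9 (14.6 ± 2.103), and 27 of 29 neighbouring pairs overlapped. Among all 39 members, Hoxd3 went from rank 9 to rank 22 and Hoxd4 from rank 8 to rank 18, while Hoxc10 went from rank 18 to rank 9 and Hoxa10 from rank 14 to rank 8. Hoxa10 had 2.76 ± 0.46 CPM per kb in sham and 4.97 ± 0.96 after IRI, and Hoxc10 1.73 ± 0.32 and 4.84 ± 1.18.

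**Figure D4:**
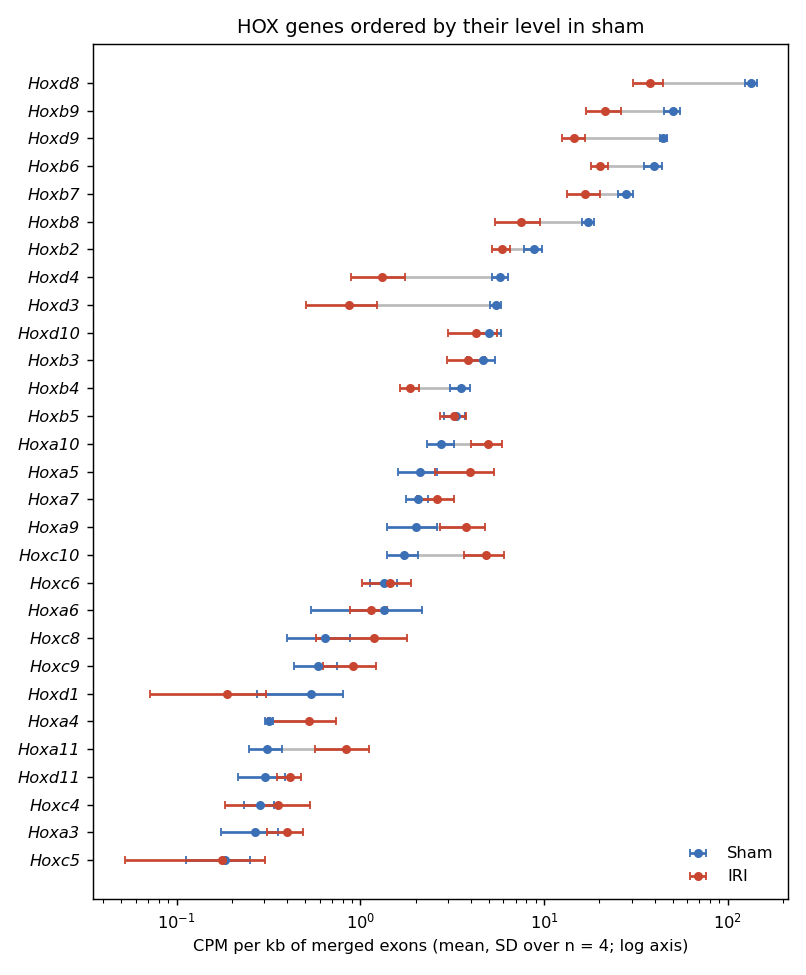
Level of the 29 HOX genes per kilobase of merged exons, in TMM-scaled CPM per kb on a log axis, ordered by the sham mean. Points are means of 4 mice and bars 1 SD. Hoxd8 is highest in both groups, at 134 and 37.6 CPM per kb, and Hoxd3 and Hoxd4 shift left by more than their neighbours.

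The 9 members outside the set had few or no counts. Hoxa2 reached 10 counts in 2 libraries, with 4 to 15 counts. Hoxb13, Hoxc12 and Hoxd12 had 0 counts in all 8 libraries, which allows up to 0.0950 to 0.234 CPM per library, from 3 counts and counting error alone. Hoxa13, Hoxb1, Hoxc11, Hoxc13 and Hoxd13 did not reach 0.5 CPM in any library.

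Noncoding genes listed for the clusters were followed beside their neighbours. Of 19 counted, 9 were tested, 3 fell and none rose, where 24.6% of all genes tested fell and 25.1% rose. The annotation places 15 of the 19 within the clusters, 7 of the 9 tested and all 3 that fell. Hoxb5os, on the opposite strand of the Hoxb cluster, was at 15.4 ± 2.44 CPM in sham and 5.29 ± 0.88 CPM after IRI. Its log2 fold change was -1.53 (standard error 0.18, edgeR adjusted p = 4.28e-05). Its span holds Hoxb5 and Hoxb6, whose log2 fold changes were -0.02 and -0.97. Gm53, which lies upstream of the gene for miR-196a in that cluster, fell by 0.89 on the log2 scale (edgeR adjusted p = 0.000490). Hoxd3os1, antisense to Hoxd3, fell by 1.27 (edgeR adjusted p = 0.000401) at 2.52 ± 0.13 CPM in sham. The gene Mir196a-1 had 41, 47, 26 and 56 counts in sham and 17, 16, 9 and 20 counts after IRI, with a log2 fold change of -0.85 (standard error 0.38, edgeR adjusted p = 0.0609). Reads there come from longer RNA than the mature microRNA printed above, so they give no level of miR-196a. In the 10 tested flanking genes, Skap2 beside Hoxa rose by 0.42 on the log2 scale (edgeR adjusted p = 0.00113), a call lost with scaling by total counts. Skap1 beside Hoxb, Cbx5 beside Hoxc and Mtx2 beside Hoxd had log2 fold changes of -2.20, -0.74 and -0.37 (edgeR adjusted p = 0.000512, 0.000119 and 0.00389). Skap1 was scarce, with 23, 20, 22 and 26 counts in sham and 5, 3, 1 and 4 counts after IRI, so the size of its fall is uncertain.

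Cofactors of the TALE class changed in a few members. Of 10 tested, 3 fell and 1 rose. For this list and those below, the shares of all genes tested were 24.6% that fell and 25.1% that rose. Pbx2 and Pbx3, which encode DNA-binding partners of HOX proteins, fell, with log2 fold changes of -1.02 and -1.002 (edgeR adjusted p = 5.35e-05 and 5.59e-05). Tgif1, a TALE repressor that acts in TGF-beta and retinoid signaling, rose from 34.8 ± 4.54 to 131 ± 9.40 CPM (log2 1.91, edgeR adjusted p = 1.55e-06). Meis2, a HOX cofactor, had a log2 fold change of 1.13 (standard error 0.38, edgeR adjusted p = 0.0297).

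Among the 10 genes listed for Trithorax and COMPASS, 2 rose and 4 fell. Kdm6b, a demethylase that removes the Polycomb mark and is not itself a COMPASS subunit, rose from 86.7 ± 11.5 to 282 ± 74.0 CPM (log2 1.70, edgeR adjusted p = 6.98e-05). Wdr5 rose by 0.38 on the log2 scale. Men1, Rbbp5, Ash2l and Dpy30, subunits or partners of the methyltransferases, fell by 0.71, 0.38, 0.34 and 0.58. Kmt2a, the methyltransferase that maintains HOX expression, had a log2 fold change of -0.17 (edgeR adjusted p = 0.520).

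Of 21 Polycomb genes tested, 3 rose and 7 fell. Phc2, a subunit of the complex PRC1, was the largest riser from 94.5 ± 8.92 to 233 ± 14.96 CPM (log2 1.30, edgeR adjusted p = 4.15e-06). Pcgf3 and Ezh2, the latter a methyltransferase of PRC2, rose by 0.40 and 0.50 on the log2 scale. The 3 most abundant that fell, Cbx6, Phc3 and Ezh1, had log2 fold changes of -0.82, -0.42 and -0.65.

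Retinoic acid genes went both ways, with 4 of 15 higher and 4 lower. Rdh10, which makes retinal, had 51.5 ± 6.27 CPM in sham and 201 ± 26.8 CPM after IRI (log2 1.97, edgeR adjusted p = 2.71e-06). Aldh1a2, which makes retinoic acid from retinal, rose by 2.29, the receptor gene Rara by 0.56 and the retinol transporter gene Stra6 by 1.33 on the log2 scale. Aldh1a1, the retinal reductase gene Dhrs3, Rarb and Rxrb fell by 1.33, 0.99, 0.75 and 0.91. Gmnn, whose product geminin binds HOX proteins, and Ctcf, which insulates domains within HOX clusters, had log2 fold changes of -1.54 and -0.48 (edgeR adjusted p = 8.18e-05 and 0.000405). Cdx1 and Cdx2, embryonic activators of HOX genes, were at 0 counts in every library. Over all 64 cofactor and regulator genes, 58 were tested, of which 10 rose and 20 fell, against 25.1% and 24.6% of all genes tested. The count that rose was 6 when any of IRI replicates 2, 3 and 4 or sham replicates 1 and 4 was left out, and 6 with scaling by total counts.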

How the data were processed

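The authors depleted ribosomal RNA from the pulldown, sequenced it on an Illumina HiSeq, used TopHat2 2.1.1 and mm10 for alignment and HTSeq for counting. What they deposited were raw, unnormalized read counts by gene symbol, 1 table a mouse. Not given in the sources used here were the strand setting, counting mode and annotation release. Counts assigned to no gene, 43.3% to 52.3% of all counts after IRI and 33.3% to 37.7% in sham, were left out of totals and tests. They include alignments that were not unique, 29.5% to 34.3% after IRI and 20.9% to 22.8% in sham. In edgeR 4.0.16 (R 4.3.3), genes were filtered by filterByExpr at a minimum count of 10 and minimum total of 15, and 14606 were scaled by TMM and entered the quasi-likelihood test. The threshold was a Benjamini-Hochberg adjusted p of 0.01. The voom method of limma 3.58.1 gave standard errors. The members that passed the count rule were named, as were at most 3 genes per direction of each other list, by mean CPM, or all where 5 or fewer passed. A few genes that this rule names were tested but are not reported here. Exon lengths and overlaps came from a GRCm38 annotation. DESeq2 1.42.0, limma-voom, other scalings and filters, the replicate number as a block, the animal number series and each library left out were alternatives. The fits were also run on simulated data in which far fewer genes changed than here, so that run does not check the scaling or the calls of these data. Members and lists were chosen with earlier results of these data known. A noncoding gene listed in error, which lies outside the clusters, was set apart after its position was looked up. Labels name no shared litter or batch, and p-values measure the spread between these mice.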

Additional observations from a re-analysis of the deposited data

Results flagged for a closer look

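Hoxb4 in sham replicate 4 stood apart from its group. It was at 7.39 CPM, while the nearest sham library was at 9.44 CPM, and this gap was 0.857 of the range of the 4 sham libraries, over Dixon's critical value for 4 values. The test was made in 60 groups of 4 libraries, 2 for each of the 30 members, and chance flags about 1 group in 20.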

How the results depend on the processing

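The 13 HOX genes that passed kept their direction in all 221 refits and passed in 218, the exceptions being Hoxa10 with the replicate block (adjusted p = 0.0115) or the animal number series (0.0106) in the model, and Hoxb7 with the block (0.0108). Of HOX genes, 10 fell (10 to 11 with each library left out, 9 with the block) and 3 rose (3 to 5 with each library left out, 5 in DESeq2 and 6 at a threshold of 0.05). Hoxa9 and Hoxa5 were those added in DESeq2 and without IRI replicate 4, and Hoxa9 also passed without sham replicate 1 (adjusted p = 0.00872) but was at 0.0339 with the block and 0.0530 with the animal number series. Regulators that rose numbered 10, 6 to 10 with each library left out, 6 with total counts, upper quartile factors or the animal number series, and 5 with the block. Noncoding and flanking genes that rose numbered 1, Skap2, and 0 with total counts or the block, but 2 at a threshold of 0.05 or with the listed gene outside the clusters. Scaling by total counts and by upper quartile factors put the median gene at log2 -0.20 and -0.12. Signs turned in 5 members that did not pass. With each library left out, log2 fold changes ran from -0.51 to 0.19 for Hoxa6, -0.11 to 0.082 for Hoxb5, -0.054 to 0.43 for Hoxc4, -0.59 to 0.16 for Hoxc5 and -0.070 to 0.23 for Hoxc6. Hoxb5 was at 0.045 with the animal number series, and Hoxc6 at -0.10 with total counts and -0.023 with upper quartile factors. On the longest transcript in place of merged exons, Hoxa10 had 3.52 CPM per kb in sham. The causes were not tested. Replicates of 1 number did not deviate together (r = -0.07, -0.53, -0.36 and -0.37 across genes), so no pairing by number was seen, though such values cannot exclude one. The block changed no HOX call beyond those of Hoxa10 and Hoxb7. Depth limits Hoxa4, Hoxa6, Hoxa11, Hoxc4, Hoxc5, Hoxd1 and Hoxd11, all below 3 CPM. Alternatives outside the main choice were set with earlier results known, and that of the listed gene after seeing the data.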
